A study of Danio rerio with 10 samples.

Results

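The genes mpz and plp1b encode major proteins of the compact myelin sheath, and both were measured in oligodendrocytes (OLs) and oligodendrocyte progenitor cells (OPCs) of the adult zebrafish spinal cord. They were chosen by identifier, ENSDARG00000038609 for mpz and ENSDARG00000011929 for plp1b, and are 2 of the 31388 features counted. OLs were FACsorted as mbp:GFP-positive cells from fish of the line Tg(mbp:eGFP), and OPCs as olig2:GFP-positive cells from fish of the line Tg(olig2:eGFP), with 5 biological replicates of each (libraries OL1 to OL5 and OPC1 to OPC5). Spinal cords of several fish could be dissected together, and polyA RNA of the sorted cells was turned into amplified full-length cDNA before sequencing. Each population came from its own line and passed a cell strainer of its own, finer for OPCs, so line, strainer and population cannot be told apart. The mbp regulatory sequence drives the GFP of the OL line, and olig2:GFP also labels some ventral radial glia at the central canal. No treatment or lesion is named in the labels of these samples.

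In compact myelin, the membrane of an oligodendrocyte is wrapped around an axon in layers that are held together by a few very abundant proteins. Myelin protein zero, the product of mpz, is an adhesion molecule of the immunoglobulin superfamily that joins the outer faces of adjacent layers. In mammals it is a protein of Schwann cell myelin in peripheral nerve, whereas fish also carry it in the myelin of the central nervous system. The product of plp1b is a proteolipid that spans the membrane repeatedly. OPCs are the cells from which new OLs form.

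The total count of a library lay between 13937725 and 20225093 in OLs and between 11072526 and 11960408 in OPCs, so every OL library was the deeper one. Size factors for scaling ranged from 0.895 to 1.40 in OLs and from 0.889 to 1.07 in OPCs. Markers of the OPC lineage followed the labels in part. Of 7 listed OPC markers, 4 were tested and 3 were higher in OPCs (olig1, olig2 and nkx2.2a), while sox10 did not pass the test, beside 9.01% of all tested features that were higher in OPCs. With means of 24.0 normalized counts in OLs and 1243 in OPCs, olig1 passed the filter for testing only with the help of the OPC libraries. The receptor gene pdgfra, a defining OPC marker in mammals, had a mean of 0.198 normalized counts in OLs and 16.3 in OPCs and was too low to be tested, as was cspg4, and nkx2.2b had 0 counts in every library. Of 7 OL markers, all tested, 3 were higher in OLs (mbpa, cldnk and cd59a), beside 2.82% of all tested features. The other 4, among them mbpb, mag and myrf, did not pass the test. Since the cells were sorted on olig2:GFP and mbp:GFP, the calls of olig2 and mbpa are not independent of the sort.

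The locus of mpz lies on GRCz10 chromosome 2, from 44406484 to 44429948 on the minus strand. The feature spans 23465 bp, with 9 exon blocks that sum to 5044 bp, of which the longest covers 4107 bp. The plp1b locus lies on chromosome 5, from 22764321 to 22776298 on the minus strand, and spans 11978 bp, with 9 exon blocks that sum to 2150 bp. Neither overlaps another feature of the table (0 in both cases). LIG1, a neighbour of mpz, had at most 587 counts in any library, and the nearest features on either side of plp1b had at most 78 (si:dkey-125i10.3) and 377 (nlgn3b).

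Both myelin genes were more abundant in OLs, plp1b by 1.75-fold and mpz by 1.51-fold in normalized counts, and neither was near absent in OPCs. The normalized counts of mpz were 1396943, 1501438, 1572315, 1473470 and 1451864 in OL1 to OL5. In OPC1 to OPC5, mpz had 1098262, 897520, 1061805, 921853 and 926750 normalized counts. OPC1 and OPC3 were the highest OPC libraries, OL1 was the lowest OL library, and the populations did not overlap. mpz averaged 1479206 ± 64636 normalized counts in OLs and 981238 ± 91774 in OPCs (SD, n = 5 each). The log2 fold change of OLs over OPCs was 0.59 (SE 0.12, 95% interval 0.34 to 0.84, adjusted p = 0.00388 in edgeR's quasi-likelihood test). Scaling by total counts alone, in place of size factors, gave mpz a log2 fold change of 0.29 with an adjusted p of 0.0799, which no longer passed the threshold of 0.05 (edgeR). That scaling moved the median over the whole set of tested features to -0.36 on the log2 scale, against -0.06 with size factors. Relative to that median, mpz was higher in OLs by 0.65 on the log2 scale under both scalings. A change of scaling moves all features by nearly the same amount, so this likeness is arithmetic and no support for mpz. Fewer cells with the transcript and less transcript per cell cannot be told apart in these bulk libraries.

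For plp1b, the normalized counts in OL1 to OL5 were 1455026, 1301381, 1511027, 1411804 and 1223298. In OPC1 to OPC5 plp1b had 821230, 701812, 871423, 918184 and 631770 normalized counts. OL3 was again the highest OL library and OL5 the lowest, OPC4 was the highest OPC library and OPC5 the lowest, and the populations did not overlap. The mean for plp1b was 1380507 ± 116773 normalized counts in OLs and 788884 ± 119210 in OPCs (SD, n = 5 each). Its log2 fold change was 0.81 (SE 0.14, 95% interval 0.51 to 1.11, adjusted p = 0.00142, edgeR). With total counts alone the log2 fold change of plp1b was 0.51 and still passed the threshold (adjusted p = 0.00646, edgeR). Relative to the median of all tested features it was 0.86 with size factors and 0.87 with total counts, a likeness that is again arithmetic.

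**Figure D1:**
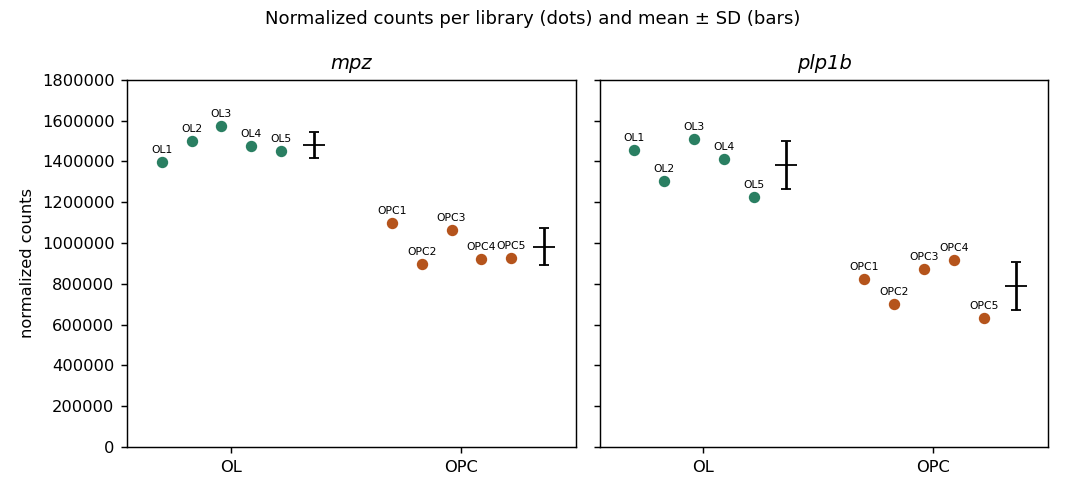
Normalized counts of mpz (left) and plp1b (right) in each of the 5 OL and 5 OPC libraries (dots), with the mean ± SD of each population (black bars). Every OL library lies above every OPC library for both genes, and for mpz the OL libraries lie closer together than the OPC libraries.

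Both genes were among the features higher in OLs at an adjusted p under 0.05, which made up 2.82% of the 12292 tested (347 features), against 9.01% higher in OPCs (1108 features). With total counts alone these numbers were 118 higher in OLs and 1811 higher in OPCs. A gap between the populations with OLs higher was present for 3.68% of tested features. Within this group the fold change of plp1b lay near the middle and that of mpz toward the low end. The median log2 fold change of the 347 features was 0.86, and 290 of them had a larger one than mpz and 187 a larger one than plp1b. Of the 100 tested features with the most counts summed over all libraries, 24 were higher in OLs, mpz and plp1b among them. The deeper OL libraries weigh more in that sum.

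Together, mpz and plp1b took 19.1% ± 0.670 of all counted reads in OLs and 14.6% ± 0.944 in OPCs (SD, n = 5 each). The share of mpz was 9.67%, 10.2%, 10.1%, 9.53% and 9.92% in OL1 to OL5 and 8.94%, 7.63%, 8.52%, 7.03% and 8.32% in OPC1 to OPC5. No OPC library reached the lowest OL value, that of OL4. The mean share of mpz was 9.87% ± 0.269 in OLs and 8.09% ± 0.756 in OPCs (1.22-fold, log2 difference 0.29). The two-sided exact permutation test gave p = 0.00794, which is the lower limit for 5 libraries against 5, and 0.0119 after adjustment over 3 such tests. A share poses the same contrast as scaling by total counts alone and is no separate support. Adjusted over all tested features, that contrast missed the threshold for mpz (adjusted p = 0.0799, edgeR).

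The share of plp1b was 10.1%, 8.80%, 9.70%, 9.13% and 8.36% in OL1 to OL5 and 6.68%, 5.96%, 6.996%, 7.01% and 5.67% in OPC1 to OPC5. Again the populations did not overlap, and OL5 and OPC5 had the lowest share of their own population. The mean share of plp1b was 9.21% ± 0.687 in OLs and 6.46% ± 0.612 in OPCs (1.43-fold, log2 difference 0.51), with the same p in the exact test (0.00794, adjusted 0.0119). Counting error was small beside this spread. The widest 95% Wilson interval of a share covered 0.0329 percentage points for mpz and 0.0311 for plp1b. These intervals cover counting error only, since amplified reads without molecular identifiers are not independent molecules.

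**Figure D2:**
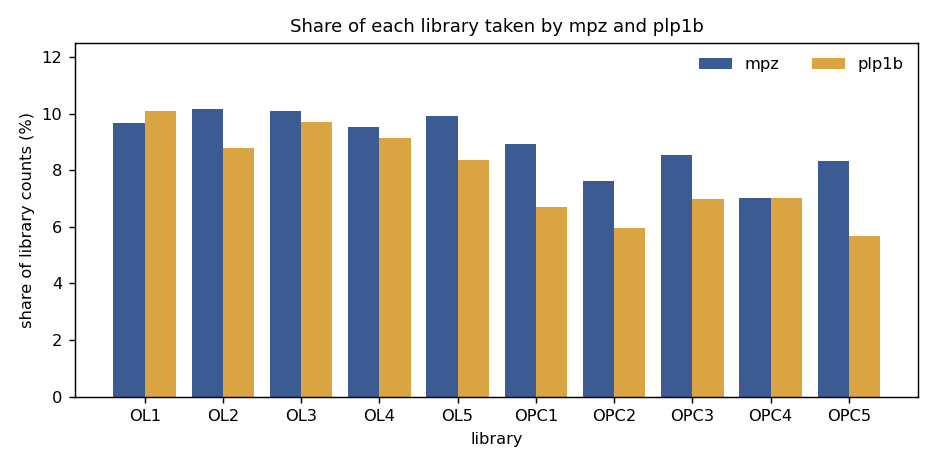
Share of all counts of a library (%) taken by mpz (blue) and plp1b (yellow) in the 5 OL libraries (left) and the 5 OPC libraries (right), from 0. The share of plp1b is at least 8.36% in every OL library and at most 7.01% in every OPC library, and that of mpz is at least 9.53% and at most 8.94%.

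By counts, mpz was the most abundant feature in 3 OL libraries (OL2, OL3 and OL5) and in 4 OPC libraries (all but OPC4, where it was at place 3). Long transcripts gather more reads, and per length the order changed. In TPM (counts divided by exon length and scaled to a common sum per library), plp1b was at place 2 in all 10 libraries. On the same scale mpz was at place 4 in all 5 OL libraries, at place 3 in OPC1 and OPC5 and at place 4 in the other OPC libraries. The gene above plp1b was cd59a, which encodes a membrane-anchored inhibitor of complement, with 172751 ± 14602 TPM in OLs and 129511 ± 25185 TPM in OPCs (SD, n = 5 each). The level of plp1b was 87423 ± 4534 TPM in OLs and 62968 ± 4182 TPM in OPCs. It lay below cd59a and above mbpa in every library.

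The level of mbpa, a myelin basic protein gene whose product joins the inner faces of the layers, was 48415 ± 3293 TPM in OLs and 34811 ± 2413 TPM in OPCs (SD, n = 5 each). For mpz, TPM was 40013 ± 2029 in OLs and 33725 ± 4012 in OPCs. In OLs mpz lay below mbpa in every library. In OPCs the order of mpz and mbpa was mixed, with mpz higher in 2 of 5 libraries, so these neighbours did not differ beyond their spread. The next gene down was STMN1, which encodes stathmin, a regulator of microtubules, at 28264 ± 2503 TPM in OLs and 26125 ± 4635 TPM in OPCs, below mpz in every library. On the TPM scale the populations all but touched for mpz, at 37597 in OL1 and 37543 in OPC5.

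The ratio of mpz to plp1b compares the genes within 1 library and needs no scaling between libraries. Per kb of exon length, OL1 to OL5 had ratios of 0.409, 0.492, 0.444, 0.445 and 0.506, and OPC1 to OPC5 had 0.570, 0.545, 0.519, 0.428 and 0.625. In all 10 libraries plp1b therefore had more counts per length than mpz. Of the OPC libraries 4 lay above every OL library, while OPC4 lay below all OL libraries but OL1. The mean ratio was 0.459 ± 0.0393 in OLs and 0.538 ± 0.0727 in OPCs (SD, n = 5 each). The log2 difference of -0.22 (a ratio 0.858 times that of OPCs) did not pass the exact permutation test (two-sided, p = 0.0794, also 0.0794 after adjustment over the 3 tests). OPC4 decided this outcome. Without it the log2 difference was -0.30, and the two-sided exact permutation test gave p = 0.0159 (adjusted p = 0.0159). This is the lower limit for 5 libraries against 4. Leaving out the only OPC library that overlapped the OLs had to give that limit, so the result is no support for a difference. Leaving out any other library gave p between 0.0635 and 0.159 in the exact permutation test. The difference in fold change between plp1b and mpz was thus not established.

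**Figure D3:**
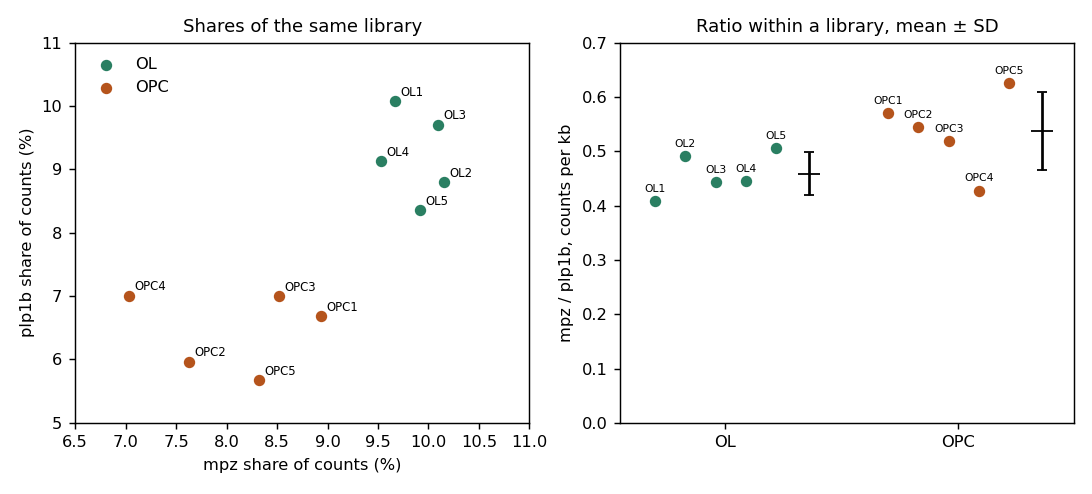
Left, share of counts (%) of plp1b against that of mpz in each library (axes do not start at 0). Right, ratio of mpz to plp1b in counts per kb in each library (dots) with the mean ± SD of each population (bars). OL and OPC libraries form separate clusters on the left, whereas the ratios overlap through OPC4, at 0.428.

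Among libraries of 1 population, the genes varied only partly together in normalized counts and not together on the scale of shares. In OLs, the SD of log2 normalized counts was 0.06 for mpz and 0.12 for plp1b, and the SD of their log2 ratio was 0.12, close to the 0.14 that the separate SDs would give without any common movement. In OPCs the SDs were 0.13 for mpz and 0.22 for plp1b, and 0.20 for the ratio, where separate movement would give 0.26. On the scale of shares, the ratio varied more than separate movement would give in both OLs (0.124 against 0.115) and OPCs (0.203 against 0.196). OL3 was the highest OL library for both genes in normalized counts, but OL1 was the lowest for mpz and next to the highest for plp1b. OPC4 was next to the lowest for mpz and the highest for plp1b. With 5 libraries per population and separate clusters, no correlation of the 2 genes was tested. Pearson's r of their deviations from the population means, on log2(normalized count + 1), was 0.409 over 10 libraries that share their scaling.

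Other genes followed each of them more closely over the 10 libraries, a pattern that holds the difference between populations too. Choosing genes by this pattern favours those higher in OLs, so their fold changes and adjusted p-values are descriptions and no support. For mpz, the features with the highest Pearson's r of log2(normalized count + 1), among 7410 that averaged 100 normalized counts or more, were CTSD (r = 0.985), the gene of the lysosomal protease cathepsin D, and DUSP22 (r = 0.974), a phosphatase gene. CTSD had 10842 ± 634 normalized counts in OLs and 7174 ± 951 in OPCs (SD, n = 5 each). Its log2 fold change of 0.60 (SE 0.12, adjusted p = 0.00547, edgeR) became 0.29 with total counts alone (adjusted p = 0.129). DUSP22 had 2001 ± 262 normalized counts in OLs and 1032 ± 227 in OPCs (log2 fold change 0.95, adjusted p = 0.00176, edgeR). plp1b was at place 23 in this order (r = 0.932).

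For plp1b, the closest were CLIC2 (r = 0.980), a gene of the intracellular chloride channel family, and GABARAPL2 (r = 0.978), a gene of autophagosome formation. CLIC2 had 15222 ± 1579 normalized counts in OLs and 8196 ± 1638 in OPCs (SD, n = 5 each; log2 fold change 0.89, adjusted p = 0.00139, edgeR). GABARAPL2 had 4436 ± 323 normalized counts in OLs and 2849 ± 316 in OPCs (log2 fold change 0.64, adjusted p = 0.00322, edgeR). mpz was at place 36 in the order for plp1b. These correlations are descriptions over libraries of 2 clusters and carry no test.

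Some of the other myelin genes were also higher in OLs, and most did not pass the test. Of 34 listed genes, 26 were matched to a feature and 22 were tested. In OLs 3 were higher and 2 were lower, and 17 did not pass the test. Their median log2 fold change was 0.03, against -0.06 over all tested features, and the count of 3 in 22 stands beside the 2.82% of all features. The 3 that were higher in OLs were the abundant mbpa, cd59a and cldnk. Of the 100 most abundant features by summed counts 24 were higher in OLs, mpz and plp1b included, so the 2.82% is not matched for abundance. mbpa had 950384 ± 63118 normalized counts in OLs and 541208 ± 62978 in OPCs (SD, n = 5 each), a log2 fold change of 0.81 (SE 0.12, adjusted p = 0.000638, edgeR). The fold change of mbpa was therefore close to that of plp1b. cd59a had 1361796 ± 161419 normalized counts in OLs and 817448 ± 229362 in OPCs (log2 fold change 0.74, adjusted p = 0.0249, edgeR).

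cldnk, which encodes a claudin of zebrafish myelin, had 101195 ± 12447 normalized counts in OLs and 65348 ± 9346 in OPCs (SD, n = 5 each; log2 fold change 0.63, adjusted p = 0.00948, edgeR). With total counts alone neither cd59a (log2 fold change 0.45, adjusted p = 0.0807) nor cldnk (0.34, adjusted p = 0.0905) passed. cd59a also missed the threshold without OPC2 (0.66, adjusted p = 0.0660) and with a filter of 10 or more counts in each library (0.71, adjusted p = 0.0604). The paralogue mbpb had 8301 ± 2047 normalized counts in OLs and 8389 ± 2860 in OPCs, with overlapping populations (log2 fold change -0.02, adjusted p = 0.978, edgeR).

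Among the reported myelin genes with at least 1000 normalized counts in either population that did not pass, the log2 fold change ran from 0.55 for nfasca (adjusted p = 0.103, edgeR), a neurofascin gene, to -0.25 for mag (adjusted p = 0.704), the gene of myelin-associated glycoprotein. Between them lay zwi at 0.23, cldn19 at 0.23, the tetraspanin gene tspan2a at 0.15, the myelin transcription factor gene myrf at -0.00 and ugt8, whose enzyme makes myelin galactolipids, at -0.16. The signs of zwi, cldn19 and tspan2a turned with total counts alone, to -0.07, -0.09 and -0.16, and those of mag and myrf turned without OPC5, to 0.23 and 0.42. nfasca passed with limma voom (0.71, adjusted p = 0.00984) and in edgeR without OPC5 (0.70, adjusted p = 0.0265) or OL5 (0.66, adjusted p = 0.0496). cldn19 passed with limma voom (0.39, adjusted p = 0.0489). In the other settings neither passed. All of these populations overlapped.

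The 2 listed genes that were lower in OLs were of low abundance. pmp22a, a peripheral myelin protein gene, had at most 1 count in any OL library and 294 ± 152 normalized counts in OPCs (SD, n = 5). With each OL library set to 3 counts, the OPC mean was 106 times the OL mean, a description without a test. The edgeR fit on the actual counts gave an adjusted p of 3.02e-06. However, pmp22a passed the filter through the OPC libraries alone, so it could be called only in that direction. cnp, whose product in mammals is a phosphodiesterase of oligodendrocyte cytoplasm, had 106 ± 26.1 normalized counts in OLs and 192 ± 23.7 in OPCs (log2 fold change -0.86, adjusted p = 0.0299, edgeR). The 2 lower among 22 stand beside 9.01% of all tested features.

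**Figure D4:**
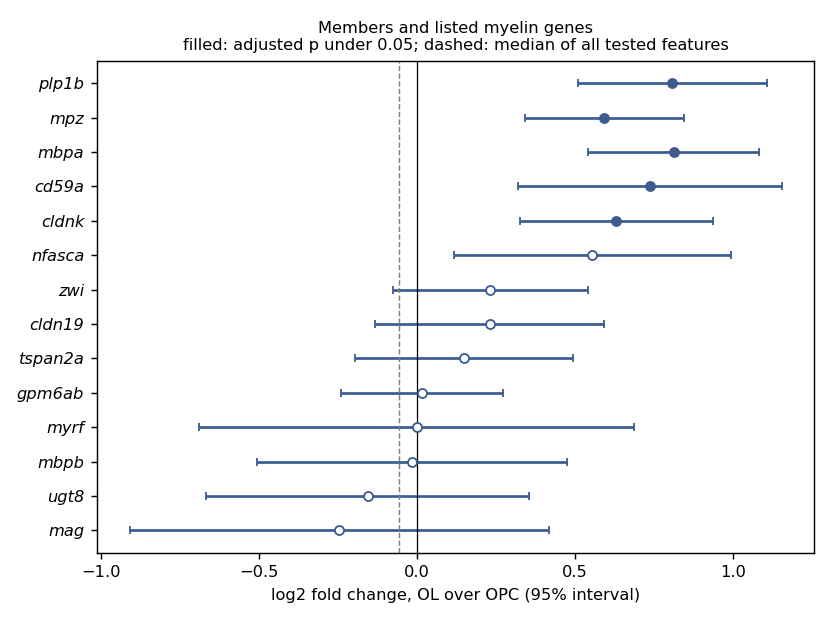
Log2 fold change of OLs over OPCs with its 95% interval (edgeR) for plp1b and mpz (top) and for listed myelin and proteolipid genes with at least 1000 normalized counts in either population. Filled dots passed an adjusted p of 0.05 and the dashed line is the median of all tested features, -0.06. Only plp1b, mpz, mbpa, cd59a and cldnk are filled, and gpm6aa, at -5.74, lies outside the axis and is not drawn.

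The M6 proteolipid genes, which mammals express in neurons and glia, belong to the same family as plp1b. Among these M6 genes, gpm6aa and gpm6bb were lower in OLs, as were 9.01% of all tested features, and gpm6ab did not pass the test. gpm6aa had 18.9 ± 20.6 normalized counts in OLs and 1019 ± 486 in OPCs (SD, n = 5 each; log2 fold change -5.74, adjusted p = 0.000187, edgeR). gpm6bb had 12.3 ± 8.95 normalized counts in OLs and 643 ± 174 in OPCs (log2 fold change -5.74, adjusted p = 1.10e-05, edgeR). With so few counts in OLs, gpm6aa and gpm6bb passed the filter only with the help of the OPC libraries. gpm6ab was abundant and its populations overlapped, at 50481 ± 4959 normalized counts in OLs and 49965 ± 4591 in OPCs (log2 fold change 0.01 with size factors and -0.30 with total counts alone, adjusted p = 0.961 and 0.132). gpm6ba, with means of 2.77 in OLs and 95.6 in OPCs, was not tested.

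Taken with the 26 matched myelin genes, mpz and plp1b gave 52.3% ± 1.40 of the summed myelin counts in OLs and 52.6% ± 2.49 in OPCs (SD, n = 5 each). All of these genes together amounted to 36.5% ± 1.48 of an OL library and 27.7% ± 1.97 of an OPC library. Most of what mpz and plp1b did not give came from cd59a and mbpa. cd59a had a mean share of 9.09% of all counts in OLs and 6.66% in OPCs, and mbpa 6.34% and 4.45%. Per length, mpz had 0.829 ± 0.0549 times the counts of mbpa in OLs and 0.973 ± 0.144 times in OPCs. plp1b had 1.82 ± 0.220 times the counts of mbpa in OLs and 1.82 ± 0.205 times in OPCs. These ratios were chosen after their values were seen and carry no test.

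Since mpz marks Schwann cells in mammals, markers of these cells were set beside it. Of 7 listed, 6 were matched and 0 had enough counts to be tested. Their summed level was 1.71 to 9.39 normalized counts in OLs and 0 to 13.5 in OPCs. prx and foxd3 were at 0 in all OL libraries and pou3f1 and foxd3 at 0 in all OPC libraries. The libraries held between 897520 and 1572315 normalized counts of mpz. How high these markers are in zebrafish Schwann cells was not measured here, and the part of such cells in the mpz counts was not tested.

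Of 8 markers of radial glia, 5 were higher in OPCs (fabp7a, slc1a2b, her4.1, her4.2 and sox2) and 0 in OLs, beside 9.01% and 2.82% of all tested features. Of these, fabp7a had 442 ± 245 normalized counts in OLs and 15017 ± 5655 in OPCs (SD, n = 5 each; adjusted p = 1.59e-05, edgeR). In OLs her4.1, her4.2 and sox2 averaged 0.171, 0.314 and 0.447. They passed the filter through the OPC libraries alone and could be called only in that direction. slc1a2b, at 0.854 normalized counts in OL2, passed it only with the help of the OPC libraries. gfap (adjusted p = 0.110), s100b (adjusted p = 0.0727) and glula (log2 fold change 0.19, adjusted p = 0.534) did not pass. The summed level of the 8 was 77041 to 129642 in OLs and 100922 to 124840 in OPCs, of which most was glula, the gene of a glutamine synthetase, with means of 107442 in OLs and 94287 in OPCs.

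Of 5 tested neuron markers, snap25a, syt1a and map2 were higher in OPCs (3 of 5, beside 9.01% of all tested features). Of these, snap25a had 34.7 ± 37.0 normalized counts in OLs and 1061 ± 621 in OPCs (SD, n = 5 each; adjusted p = 0.00227, edgeR). With so few counts in OLs, snap25a, syt1a and map2 passed the filter only with the help of the OPC libraries. Neither elavl3 (adjusted p = 0.579) nor elavl4 (adjusted p = 0.550) passed, and these carried most of the summed level, 6477 to 8212 in OLs and 6562 to 9173 in OPCs, with elavl3 means of 5631 in OLs and 4938 in OPCs. For microglia and leukocytes the summed level was 3244 to 14734 in OLs and 2025 to 6966 in OPCs, with 0 of 2 tested markers past the test. Nearly all of it was apoeb, an apolipoprotein gene, with means of 9254 in OLs and 3698 in OPCs (adjusted p = 0.0515, edgeR). The leukocyte gene ptprc averaged 14.3 in OLs and 29.4 in OPCs, and coro1a was at 0 in all OPC libraries. Endothelial markers summed to at most 4.27 in OLs and 55.1 in OPCs, and those of erythrocytes to at most 23.5 in OLs and 7.48 in OPCs. The part of other cells in the fold changes of mpz and plp1b was not tested, and neither was the part of OLs within the olig2:GFP gate.

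The OPC libraries were not equally far from the OLs. Over the 12292 tested features, the mean Pearson's r with the OL libraries was highest for OPC1 (0.829) and lowest for OPC5 (0.722). The levels of mpz and plp1b did not follow this order throughout. OPC1 had the highest mpz level and share of the OPC libraries and OPC5 the lowest plp1b level and share, but mpz was lowest in OPC2 by level and in OPC4 by share, and plp1b was highest in OPC4 by both. Without OPC1, the log2 fold change was 0.64 for mpz (adjusted p = 0.00279, edgeR) and 0.82 for plp1b (adjusted p = 0.00234). Without OPC5 it was 0.57 for mpz (adjusted p = 0.00470, edgeR) and 0.74 for plp1b (adjusted p = 0.00172).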

How the data were processed

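The authors sequenced polyA RNA of FACsorted cells, mapped reads with GSNAP to GRCz10, counted them per Ensembl gene with featureCounts 1.5.2 (per the submitters' processing notes, which also list bcl2fastq 2.17.1.14) and deposited raw counts with the exon length of each of 31388 features. Strand and multi-mapping settings are not given in the sources used here, so reads of paralogues may have been split. The number of count columns of no sample was 0.

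From these counts, features were kept by filterByExpr (12292), scaled by DESeq2 1.42.0 size factors computed on the kept features, and tested in edgeR 4.0.16 (quasi-likelihood test, R 4.3.3) with Benjamini-Hochberg adjustment over all tested features. Shares and ratios were tested in Python 3.11.15 by exact permutation of libraries. P-values set the difference between populations against the spread between these libraries. Alternatives were TMM, total counts, size factors without features over 1% of counts, other filters, DESeq2, limma 3.58.1, a replicate block, other denominators and leaving out each library. Thinning every library to 11072526 counts was added after seeing the data.

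Symbols matched 25925 identifiers. Listed paralogues given without their letter were placed by the chromosome that RefSeq gives. Both genes and the lists were chosen with earlier results of these data known. mpz, mbpa, cldnk, olig1 and olig2 served the study as markers on these same libraries. Named were both genes, the 2 features most like each, their neighbours in TPM and listed genes with at least 1000 normalized counts, except some that are not reported here. pmp22a, cnp, gpm6bb, gpm6ba and the markers of cell types were named after their values were seen.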

Additional observations from a re-analysis of the deposited data

Results flagged for a closer look

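In OPC5, mag stood apart from the other OPC libraries, with 11413 normalized counts against 3238 to 4484 in the other four. myrf also stood apart there, with 3015 normalized counts in OPC5 against 880 to 1498 in the others. The distance to the next OPC library made up 0.848 of the group's range for mag and 0.711 for myrf. Dixon's critical value for 5 libraries is 0.71, so myrf was only just above it. Of 50 groups of values examined, chance at 1 in 20 would give 2.5, and only those of mag and myrf in OPCs stood apart. No value of mpz or plp1b stood apart in this way.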

How the results depend on the processing

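Over 19 alternatives each, plp1b stayed higher in OLs and past the threshold in all 19 (log2 fold change 0.51 to 0.87, adjusted p 4.34e-07 to 0.00903) and mpz in 18 (0.29 to 0.64, adjusted p 9.50e-07 to 0.0799), the exception being total counts alone (0.29). Leaving out each library gave 0.56 to 0.64 for mpz, 0.74 to 0.87 for plp1b, 0.24 to 0.33 and 0.47 to 0.55 for the log2 difference in their shares, -0.30 to -0.16 for their ratio, 1282 to 1796 for features differing and 2 to 4 for listed myelin genes higher in OLs. Features differing numbered 1455, against 877 at an adjusted p under 0.01, 2336 without a filter (1333 of them among the 1455) and 449 with at least 10 counts in every library (443 of them among the 1455). Listed myelin genes higher in OLs numbered 1 with total counts alone and 5 with limma voom. Signs turned, always without passing the threshold, for cldn19 (-0.089), tspan2a (-0.16), zwi (-0.067) and gpm6ab (-0.30) with total counts alone, for myrf without a filter (0.0044), for gpm6ab with at least 10 counts (-0.016), for mbpb (0.11), mag (0.14) and myrf (0.41) with limma voom, and on leaving out a library for mbpb (-0.14 to 0.21), myrf (-0.14 to 0.42), gpm6ab (-0.025 to 0.062) and mag (-0.38 to 0.23). The cause was not tested. With a replicate block, mpz had 0.60 (adjusted p = 0.0131), plp1b 0.82 (adjusted p = 0.00234), features differing numbered 1407, mbpb had 0.0087 and myrf 0.13, and the ratio -0.22 gave p = 0.125 in an exact sign-flip test, which cannot go below 0.0625. Same-numbered libraries correlated at 0.024 to 0.105 in their deviations, others at -0.102 to 0.073. Of 10 libraries, 8 correlated best with their own number among 5 possible partners, but each pair enters this count from both sides. The labels do not say whether same-numbered libraries belong together, so this is a hint from the data only. Depth limits no value of mpz or plp1b, whose lowest count was 676078.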
